A study of Homo sapiens with 8 samples.

Results

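The genes described here mark the integrated stress response and the unfolded protein response, 2 linked programmes by which cells answer amino acid shortage, disturbed protein synthesis and misfolded protein in the endoplasmic reticulum (ER). The rule lists 10 genes by Ensembl ID with their symbols. The deposited expression table gives a value for 9 of them, among 19002 genes in all; the listed ID of ATF4 is not among its rows, so ATF4 was not analysed here. Of the 9, DDIT3, TRIB3, ASNS, CHAC1, PSAT1 and DDIT4 stand for the integrated stress response, and HSPA5, XBP1 and HERPUD1 for the unfolded protein response.

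In the integrated stress response, stress-sensing kinases phosphorylate the translation factor eIF2-alpha. General protein synthesis then slows while translation of ATF4 rises, and ATF4 switches on genes for amino acid synthesis and transport and for stress signalling. In the unfolded protein response the ER membrane sensors PERK, IRE1 and ATF6 raise the capacity for folding and for degradation of misfolded protein; PERK is also a kinase of eIF2-alpha, which joins the programmes. Liver cells secrete much protein and depend on this folding capacity.

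Transcripts were measured in HepG2, an established human line from a liver tumour, grown as a monolayer and given fresh medium when nearly confluent. Benzo[a]pyrene (BaP), a combustion product of several fused aromatic rings, is activated inside cells to metabolites that bind DNA. Cells exposed to BaP for 24 h were set against cells in solvent, 0.5% dimethyl sulfoxide (DMSO), for 24 h, and cells exposed for 12 h against 12 h of solvent; each of these 4 groups has 2 arrays, and the labels used here give no dose of BaP. The question was the transcript response to BaP at each time. The titles speak of biological replicates but not of separate cultures, so p-values measure the spread between these arrays only.

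All values are on the log2 scale, so a difference of 1 is a doubling. Replicate arrays correlated at 0.998 across genes in each group. The array DMSO 24 h replicate 2 stood apart in its 18S ribosomal RNA probe sets, with a mean of 11.3 against 12.6 to 13.1 on the other 7 arrays, so the effects at 24 h are also given without it. The mean of the poly-A control probe sets, for bacterial transcripts that the standard Affymetrix procedure adds to RNA before labelling, was 9.56 and 9.20 in BaP against 9.45 and 9.08 in DMSO at 24 h, and 9.61 and 9.31 in BaP against 9.92 and 9.91 in DMSO at 12 h. The difference between the 3' and 5' probe sets of GAPDH, a sign of RNA integrity, lay between 0.007 and 0.051 on all 8 arrays. The part of these measures in the results below was not tested. Arrays carry no counting depth, and their number limits the precision. Every value of the 9 genes lay above 4.35, the highest value of control probe sets for a bacterial transcript read as absent; the lowest was 6.17, for CHAC1.

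The 9 rows are ENSG00000175197_at (DDIT3), ENSG00000101255_at (TRIB3), ENSG00000070669_at (ASNS), ENSG00000128965_at (CHAC1), ENSG00000135069_at (PSAT1), ENSG00000168209_at (DDIT4), ENSG00000044574_at (HSPA5), ENSG00000100219_at (XBP1) and ENSG00000051108_at (HERPUD1). None of the 9 genes was higher in BaP past the threshold at either time, where 2.97% of all genes were called higher at 24 h and 3.39% at 12 h. A gene was called changed at an adjusted p under 0.05 in limma, with the Benjamini-Hochberg method over all 19002 genes. At 24 h, 3 of the 9 genes fell in BaP: HSPA5, HERPUD1 and DDIT4. Over all genes, 6.07% were called at 24 h and 3.09% were called lower. At 12 h, 1 of the 9 fell, HERPUD1, where 8.27% of all genes were called and 4.87% were called lower. The 9 genes had a median log2 fold change of -0.24 at 24 h and -0.14 at 12 h, where all genes had medians of 0.01 and 0.02. Single arrays moved these medians: at 24 h leaving out BaP 24 h replicate 1 gave -0.08 and leaving out DMSO 24 h replicate 2 gave -0.14, and at 12 h the median was -0.07 without BaP 12 h replicate 1 and -0.21 without BaP 12 h replicate 2. With arrays scaled to equal poly-A controls, the median of all genes moved to -0.11 at 24 h and 0.47 at 12 h. The median of the 9 was then -0.36 at 24 h and turned positive, to 0.31, at 12 h. None of the 9 passed in limma at either time (2 had an unadjusted p under 0.05 at each). Over all 19002 genes, that fit called 110 at 24 h and 2011 at 12 h. Both BaP arrays lay below both DMSO arrays in 5 of the 9 genes at 24 h, against 23.5% of all genes, and in 4 of the 9 at 12 h, against 23.4%. In no member did both BaP arrays lie above both DMSO arrays, a position held by 25.4% of all genes at 24 h and 30.7% at 12 h. The fold change was negative at both times in 6 of the 9 genes, and in 26.4% of all genes. These genes were chosen with earlier results of the same arrays known, so the counts describe these 9 genes and carry no test of the list.

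**Figure D1:**
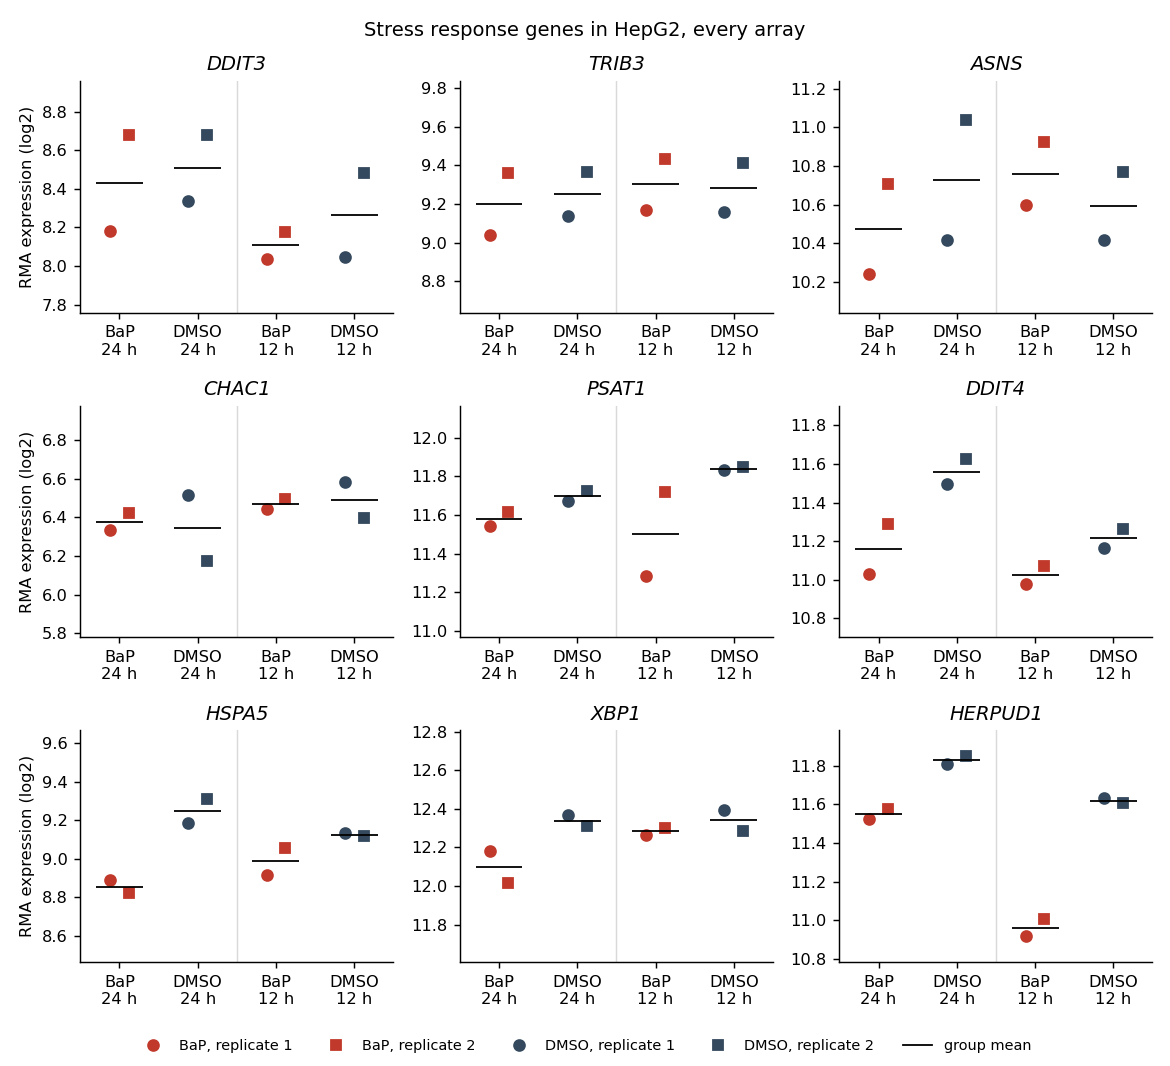
RMA expression (log2, vertical axis) of the 9 genes on each of the 8 arrays. Circles are replicate 1, squares replicate 2, red is BaP, dark blue is DMSO, and horizontal lines are means of 2 arrays; every panel spans the same height. HERPUD1 in BaP at 12 h, at 10.92 and 11.00, lies furthest below its DMSO arrays, at 11.63 and 11.61.

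Most of the calls lay in the unfolded protein response genes, while the largest fall at 24 h was that of DDIT4, in the other group. At 24 h 2 of the 3 genes fell, where 3.09% of all genes were called lower. Their log2 fold changes ran from -0.39 to -0.24 over the group. At 12 h 1 of 3 fell, where 4.87% of all genes were called lower, with a range from -0.66 to -0.06. Residual SDs ran from 0.040 to 0.075 in this group and from 0.11 to 0.32 in the other, so a call there needed a larger change. HERPUD1, an ER membrane protein that helps bring misfolded protein to degradation, was the member with the largest fall at 12 h. HSPA5, the main ER chaperone BiP, fell at 24 h. XBP1, the transcription factor that IRE1 activates by splicing its mRNA, did not pass at either time.

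The promoters of these 3 genes are shown because the ER stress response elements (ERSE) through which ATF6 and XBP1 act on such genes have known letters. The windows come from RefSeq on GRCh38.p14 and run from 250 bases before to 50 after an annotated transcript start, 5' to 3' on the strand of the gene. HSPA5 lies on the minus strand, with its window at chr9:125241294-125241593. XBP1 also lies on the minus strand, at chr22:28800520-28800819 for the first of its 2 annotated starts. HERPUD1 lies on the plus strand, at chr16:56931892-56932191. Capitals mark exact matches, on either strand, to any of 5 motifs: ERSE, which is CCAAT and CCACG with 9 bases between; ERSE-II, which is ATTGG and CCACG with 1 base between; the C/EBP-ATF response element (CARE) core TGATGNAA, bound by ATF4; the unfolded protein response element (UPRE) core TGACGTGG; and the xenobiotic response element (XRE) core TNGCGTG, bound by the BaP receptor AHR. ERSE and ERSE-II share the letters CCACG; no matches overlapped in the windows of the 10 genes.
HSPA5: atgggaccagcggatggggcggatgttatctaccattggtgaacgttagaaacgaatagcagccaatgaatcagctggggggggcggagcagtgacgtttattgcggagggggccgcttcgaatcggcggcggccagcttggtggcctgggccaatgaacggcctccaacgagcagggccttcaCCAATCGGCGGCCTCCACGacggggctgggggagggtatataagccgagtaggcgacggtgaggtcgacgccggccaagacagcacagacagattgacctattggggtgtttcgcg
XBP1: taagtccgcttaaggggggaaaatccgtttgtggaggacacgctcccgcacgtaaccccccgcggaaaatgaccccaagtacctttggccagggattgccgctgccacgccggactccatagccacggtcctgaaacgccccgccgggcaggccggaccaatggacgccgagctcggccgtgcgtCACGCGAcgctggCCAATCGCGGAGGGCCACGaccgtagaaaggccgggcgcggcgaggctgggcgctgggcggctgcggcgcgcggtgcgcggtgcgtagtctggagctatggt
HERPUD1: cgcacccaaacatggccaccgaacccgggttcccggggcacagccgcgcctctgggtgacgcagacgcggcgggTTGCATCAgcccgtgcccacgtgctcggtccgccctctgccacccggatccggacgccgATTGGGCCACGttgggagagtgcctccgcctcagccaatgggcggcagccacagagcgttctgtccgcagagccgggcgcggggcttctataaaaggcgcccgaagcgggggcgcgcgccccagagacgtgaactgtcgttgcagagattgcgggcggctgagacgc

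Each of the 3 windows held an ER stress element. The ERSE of HSPA5 begins 66 bases before the start and that of XBP1 52 bases before it, and the ERSE-II of HERPUD1 begins 117 bases before the start. Of 35116 promoter windows in the RefSeq table, 27 held an ERSE (0.0769%) and 19 an ERSE-II (0.0541%). These elements were looked for because they are known from such genes, so the matches carry no test against those shares. The window of HERPUD1 also held a CARE core, 176 bases before the start, as did 3.62% of all windows, and that of XBP1 an XRE core, 65 bases before the start, as did 5.51%. The second window of XBP1 held no match. No UPRE core was found in any window of the 10 genes, while 0.729% of all windows held one. A match is a stretch of letters and does not show that a factor binds there. Elements with a changed base were not counted.

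**Figure D2:**
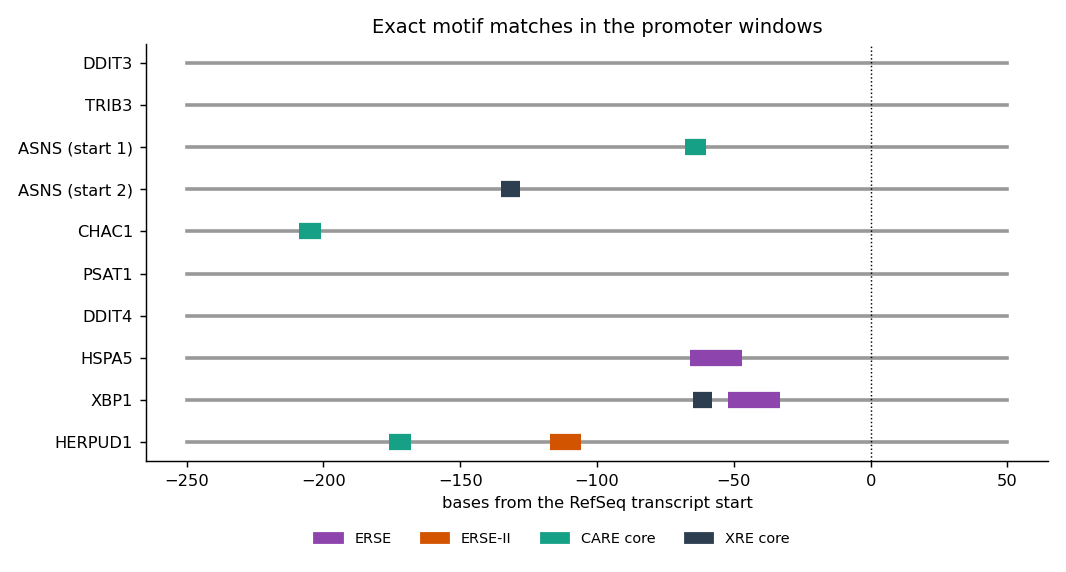
Positions of exact motif matches (coloured blocks) in the promoter windows of the 9 measured genes (grey lines), in bases from the RefSeq transcript start (0, dotted). The first annotated start of each gene is shown, and the second of ASNS, which holds a match. HSPA5 and XBP1 hold an ERSE within 66 bases before the start and HERPUD1 an ERSE-II, while DDIT3, TRIB3, PSAT1 and DDIT4 hold no match.

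HERPUD1 read 11.52 and 11.58 in BaP at 24 h, against 11.81 and 11.85 in DMSO at 24 h. Its values at 12 h were 10.92 and 11.00 in BaP, against 11.63 and 11.61 in DMSO. The BaP arrays lay below the DMSO arrays at each time with no overlap, and the BaP arrays of 12 h were the lowest of all 8. The log2 fold change was -0.28 ± 0.067 at 24 h (SE, limma adjusted p = 0.0468), 1.21-fold lower in BaP, and -0.66 ± 0.067 at 12 h (adjusted p = 6.90e-04), 1.58-fold lower in BaP. From the lowest fold change upward, HERPUD1 stood at place 1104 of 19002 genes at 24 h and at place 218 at 12 h. It was the 1 member that fell at both times, as did 1.49% of all genes. Its arrays agreed closely, with a residual SD of 0.040 where the median gene had 0.085. With 1 array of 12 h left out, the fall at 12 h lay between -0.70 and -0.61 and still passed. An array of 1 time does not enter the effect at the other time, and leaving it out changed only the error. The fall at 24 h passed in none of the 8 fits with 1 array left out (adjusted p from 0.0722 to 0.189), and without DMSO 24 h replicate 2 it was -0.26 with an adjusted p of 0.189.

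HSPA5 read 8.89 and 8.82 in BaP at 24 h, against 9.18 and 9.31 in DMSO at 24 h. The 12 h arrays read 8.92 and 9.06 in BaP, against 9.13 and 9.12 in DMSO. The BaP arrays lay below the DMSO arrays at each time, as they did in 23.5% of all genes at 24 h and in 23.4% at 12 h. The log2 fold change was -0.39 ± 0.078 at 24 h (SE, limma adjusted p = 0.0242), 1.31-fold lower in BaP. At 12 h it was -0.14 ± 0.078 (adjusted p = 0.354), with a 95% interval from -0.32 to 0.04. Leaving out BaP 24 h replicate 1 (adjusted p = 0.0693), BaP 24 h replicate 2 (0.145) or DMSO 24 h replicate 2 (-0.33, adjusted p = 0.138) ended the call at 24 h, which passed without any 1 of the other 5 arrays.

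XBP1 read 12.18 and 12.02 in BaP at 24 h, against 12.37 and 12.31 in DMSO at 24 h. Values at 12 h were 12.26 and 12.30 in BaP, against 12.40 and 12.29 in DMSO. The groups did not overlap at 24 h and overlapped at 12 h. BaP minus DMSO came to a log2 fold change of -0.24 ± 0.080 at 24 h (SE, limma adjusted p = 0.131), with a 95% interval from -0.42 to -0.06 that is not adjusted for the number of genes (-0.27 without DMSO 24 h replicate 2, adjusted p = 0.260), and -0.06 ± 0.080 at 12 h (adjusted p = 0.741). Each array has 1 value for the gene, so spliced and unspliced XBP1 mRNA were not told apart.

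**Figure D3:**
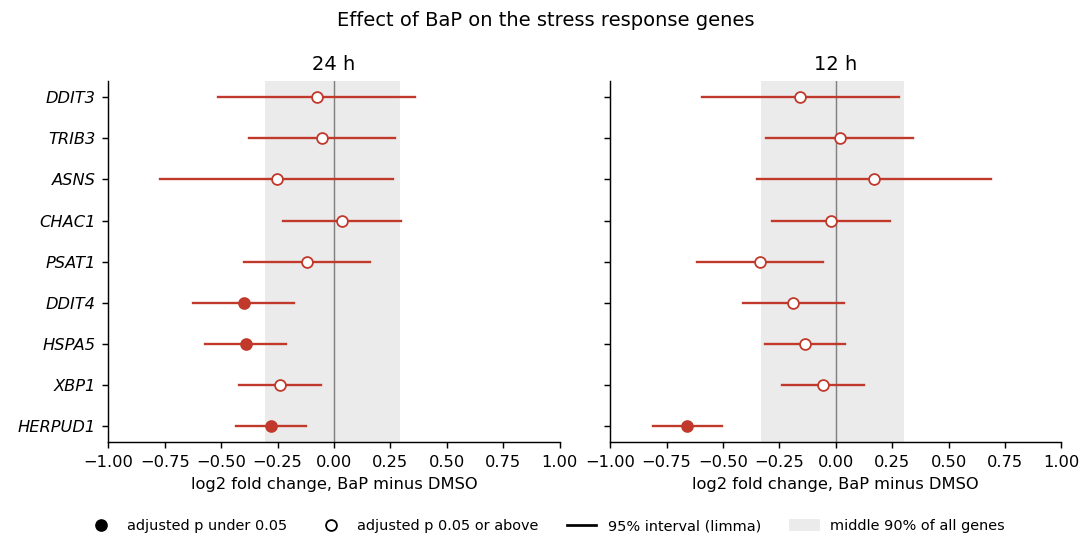
Log2 fold change of BaP minus DMSO (horizontal axis) for the 9 genes at 24 h (left) and 12 h (right). Points are limma estimates, filled where the adjusted p was under 0.05, lines are 95% intervals and the grey band holds the middle 90% of all 19002 genes. At 24 h DDIT4, HSPA5 and HERPUD1 are filled, at -0.40, -0.39 and -0.28, and at 12 h HERPUD1 alone, at -0.66.

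In the integrated stress response group, DDIT4 alone of 6 genes fell in BaP at 24 h, where 3.09% of all genes were called lower. None of the 6 passed at 12 h, where 8.27% of all genes were called. Log2 fold changes ranged from -0.40 to 0.03 at 24 h and from -0.34 to 0.17 at 12 h. Without DMSO 24 h replicate 2 the value at 24 h turned positive in DDIT3, TRIB3 and ASNS and negative in CHAC1. Between arrays of the same replicate number at 24 h, BaP lay below DMSO for either number in DDIT3, TRIB3 and ASNS. For replicate 2 this was only 8.678 against 8.680 in DDIT3 and 9.360 against 9.368 in TRIB3. The labels do not say whether such arrays belong together, and the share of all genes with this order was not counted. At 12 h PSAT1 was the member of this group with an unadjusted p under 0.05.

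DDIT4, also called REDD1, inhibits the growth kinase complex mTORC1 under stress. It read 11.03 and 11.29 in BaP at 24 h, against 11.50 and 11.62 in DMSO at 24 h. The 12 h arrays gave 10.98 and 11.07 in BaP, against 11.17 and 11.26 in DMSO. The BaP arrays lay below the DMSO arrays at each time. The log2 fold change was -0.40 ± 0.098 at 24 h (SE, limma adjusted p = 0.0499), 1.32-fold lower in BaP, and -0.19 ± 0.098 at 12 h (adjusted p = 0.309). Its call at 24 h sits at the threshold: the authors' deposited table, which tested the control probe sets as well, lists a false discovery rate of 0.0507. It was lost in 7 of the 8 fits with 1 array left out (adjusted p from 0.0723 to 0.240; -0.34 with 0.240 without DMSO 24 h replicate 2, and -0.27 with 0.194 without BaP 24 h replicate 1) and kept without BaP 24 h replicate 2 (0.0497).

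PSAT1 makes phosphoserine in serine synthesis. It read 11.54 and 11.61 in BaP at 24 h, against 11.67 and 11.73 in DMSO at 24 h. Its 12 h values were 11.29 and 11.72 in BaP, against 11.83 and 11.85 in DMSO. The BaP arrays lay below the DMSO arrays at each time, and those of 12 h were 0.44 apart. Its log2 fold change was -0.12 ± 0.12 at 24 h (SE, limma adjusted p = 0.652) and -0.34 ± 0.12 at 12 h (adjusted p = 0.149). Without BaP 12 h replicate 2 the value at 12 h was -0.55 and passed the threshold (adjusted p = 0.0159), while without BaP 12 h replicate 1 it was -0.12 (adjusted p = 0.579). Without DMSO 24 h replicate 2 the value at 24 h was -0.09 (adjusted p = 0.847).

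DDIT3 encodes CHOP, a transcription factor induced late in both programmes and tied to cell death. It read 8.18 and 8.68 in BaP at 24 h, against 8.34 and 8.68 in DMSO at 24 h. At 12 h it read 8.04 and 8.18 in BaP, against 8.05 and 8.48 in DMSO. The groups overlapped at each time. This gave a log2 fold change of -0.08 ± 0.19 at 24 h (SE, limma adjusted p = 0.872) and -0.16 ± 0.19 at 12 h (adjusted p = 0.701). Its 95% intervals ran from -0.51 to 0.36 at 24 h and from -0.59 to 0.28 at 12 h, and without DMSO 24 h replicate 2 the value at 24 h was 0.09 (adjusted p = 0.899).

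TRIB3, a pseudokinase that ATF4 and CHOP induce, read 9.04 and 9.36 in BaP at 24 h, against 9.14 and 9.37 in DMSO at 24 h. The values at 12 h were 9.17 and 9.43 in BaP, against 9.16 and 9.41 in DMSO. The groups overlapped at each time. The log2 fold change was -0.05 ± 0.14 at 24 h (SE, limma adjusted p = 0.882; 95% interval from -0.38 to 0.27) and 0.02 ± 0.14 at 12 h (adjusted p = 0.964; from -0.31 to 0.34). At 24 h it was 0.06 without DMSO 24 h replicate 2 (adjusted p = 0.917).

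The promoters of ASNS and CHAC1 are shown as those of the ATF4 target genes in which a CARE core was found. ASNS lies on the minus strand, with the window of its first annotated start at chr7:97872359-97872658, and CHAC1 on the plus strand at chr15:40953221-40953520 (RefSeq, GRCh38.p14). Capitals mark the CARE core, which reads 5' to 3' in ASNS and on the opposite strand in CHAC1.
ASNS: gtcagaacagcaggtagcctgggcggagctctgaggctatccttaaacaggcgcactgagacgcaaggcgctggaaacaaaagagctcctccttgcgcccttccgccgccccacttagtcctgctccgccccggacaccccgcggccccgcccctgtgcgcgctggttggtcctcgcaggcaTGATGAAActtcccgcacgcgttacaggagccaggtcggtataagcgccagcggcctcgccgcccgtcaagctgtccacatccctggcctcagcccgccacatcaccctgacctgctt
CHAC1: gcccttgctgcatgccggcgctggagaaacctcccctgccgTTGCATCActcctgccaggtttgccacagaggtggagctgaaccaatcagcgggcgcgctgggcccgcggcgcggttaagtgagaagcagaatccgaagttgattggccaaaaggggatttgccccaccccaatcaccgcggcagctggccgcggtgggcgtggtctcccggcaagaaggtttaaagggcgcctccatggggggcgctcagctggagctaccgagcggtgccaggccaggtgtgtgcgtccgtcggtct

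The CARE core begins 68 bases before the start in ASNS and 209 bases before it in CHAC1. The second window of ASNS held an XRE core and no CARE core. No window of DDIT3, TRIB3, PSAT1 or DDIT4 held an exact match to any of the 5 motifs. Elements with a changed base, or further than 250 bases before the start, would be missed.

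ASNS makes asparagine and is a classic ATF4 target of the amino acid response. It read 10.24 and 10.71 in BaP at 24 h, against 10.42 and 11.04 in DMSO at 24 h. The 12 h arrays read 10.60 and 10.92 in BaP, against 10.42 and 10.77 in DMSO. The groups overlapped at each time, with a log2 fold change of -0.25 ± 0.23 at 24 h (SE, limma adjusted p = 0.594) and of 0.17 ± 0.23 at 12 h (adjusted p = 0.730). Both signs turned when 1 array was left out. The value at 24 h was 0.06 without DMSO 24 h replicate 2. That at 12 h was -0.0068 without DMSO 12 h replicate 1. Between arrays of the same replicate number, BaP lay below DMSO for either number at 24 h. It lay above DMSO for either number at 12 h. Whether arrays of the same number belong together is not given by the labels. The 95% intervals were the widest of the 9 genes, from -0.77 to 0.26 at 24 h and from -0.35 to 0.69 at 12 h.

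CHAC1 degrades glutathione and is induced by ATF4 and CHOP. It read 6.33 and 6.42 in BaP at 24 h, against 6.52 and 6.17 in DMSO at 24 h. In the 12 h groups it read 6.44 and 6.50 in BaP, against 6.58 and 6.39 in DMSO. The DMSO arrays of each time enclosed the BaP arrays. The log2 fold change was 0.03 ± 0.12 at 24 h (SE, limma adjusted p = 0.912; 95% interval from -0.23 to 0.30) and -0.02 ± 0.12 at 12 h (adjusted p = 0.946; from -0.28 to 0.24). Its value at 24 h was -0.14 without DMSO 24 h replicate 2 (adjusted p = 0.594).

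The gap between replicate arrays differed among these genes. In 5 of the 9 genes, namely DDIT3, TRIB3, ASNS, PSAT1 and DDIT4, the array labelled replicate 2 was above that labelled replicate 1 in all 4 groups, a pattern found in 9.61% of all genes. In none of the 9 was it below in all 4 groups, a pattern found in 7.49% of all genes. For ASNS the gap at 24 h was 0.47 in BaP and 0.62 in DMSO, while the gap at 12 h was 0.32 in BaP and 0.35 in DMSO. That of TRIB3 ranged from 0.23 to 0.32 over the groups and that of DDIT3 from 0.14 to 0.49. The 3 genes of the unfolded protein response had gaps from -0.17 to 0.14, of either sign. The residual SD of ASNS was 0.32, above that of 99.7% of genes, and that of DDIT3 was 0.27, above 99.1%. The labels do not say what a replicate number stands for across groups.

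**Figure D4:**
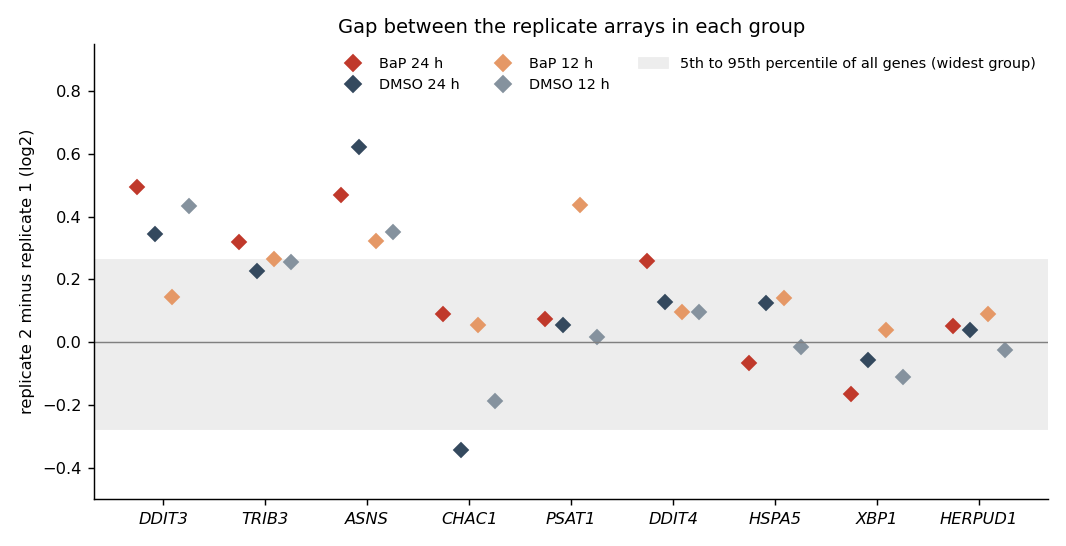
Difference between the array labelled replicate 2 and that labelled replicate 1 (log2, vertical axis) for the 9 genes, with 1 diamond per group. The grey band runs from the lowest 5th to the highest 95th percentile of all genes over the 4 groups, -0.28 to 0.26. All 4 diamonds of ASNS lie above the band, from 0.32 to 0.62, while those of HERPUD1, HSPA5 and XBP1 lie within it.

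The change between times was then measured within each treatment. In BaP, HERPUD1 was higher at 24 h, at 11.52 and 11.58, than at 12 h, at 10.92 and 11.00. Its log2 change was 0.59 ± 0.067 (SE, limma adjusted p = 8.12e-04). With 1 BaP array left out the change lay between 0.55 and 0.63 and still passed, while DMSO arrays do not enter it. HERPUD1 was the 1 of 9 genes that passed in BaP, where 15.3% of all genes were called and 7.21% were called higher. In DMSO none of the 9 passed in limma (2 had an unadjusted p under 0.05), where 6.85% of all genes were called. The 2 were DDIT4 with a log2 change of 0.35 ± 0.098 (adjusted p = 0.0732) and HERPUD1 with 0.21 ± 0.067 (adjusted p = 0.104). Without DMSO 24 h replicate 2 the change of DDIT4 was 0.28 and that of HERPUD1 0.19, and neither passed. DDIT4 passed with cyclic loess (adjusted p = 0.0469) and with a trended prior (0.0260), where HERPUD1 passed as well (0.0252).

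**Figure D5:**
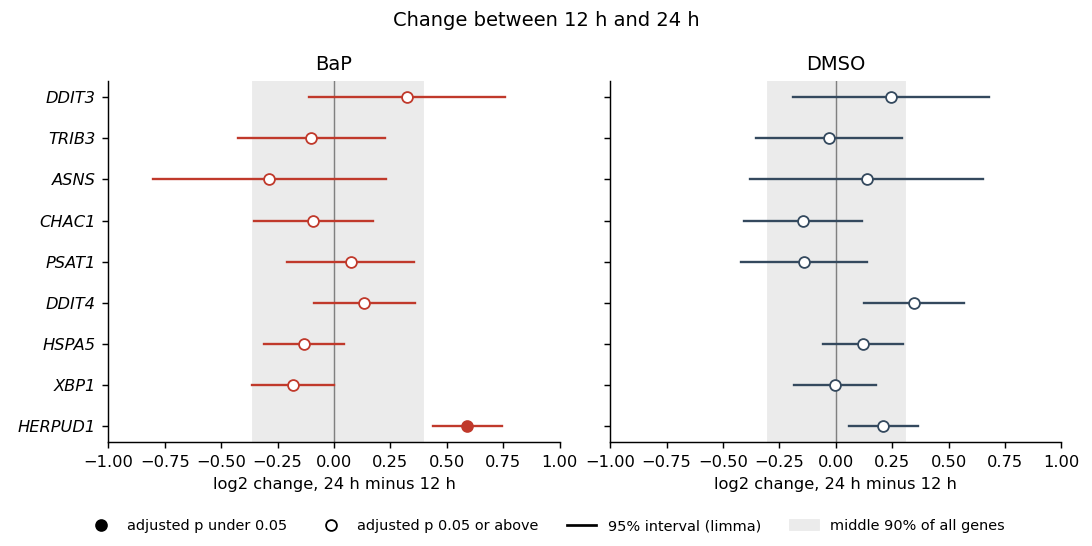
Log2 change between times (horizontal axis, 24 h minus 12 h) for the 9 genes in BaP (left) and in DMSO (right). Points, lines and the grey band are as in the plot of BaP effects. HERPUD1 in BaP is the filled point, at 0.59, and DDIT4 in DMSO, at 0.35, is not filled.

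The difference of the BaP effects between times was tested itself, and none of the 9 genes passed, where 0.642% of all genes did; 2 of the 9 had an unadjusted p under 0.05. The effect on HERPUD1 was -0.28 at 24 h and -0.66 at 12 h, a difference of 0.38 ± 0.095 (SE, limma adjusted p = 0.131). The effect on HSPA5 was -0.39 at 24 h and -0.14 at 12 h, a difference of -0.25 ± 0.11 (adjusted p = 0.363). The calls at 24 h and 12 h are therefore not shown to differ for any of these genes. With a trended prior the difference of HERPUD1 passed (adjusted p = 0.0328). Without DMSO 24 h replicate 2 the difference was 0.40 for HERPUD1 (adjusted p = 0.239) and -0.19 for HSPA5 (0.579).

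Over both times, with time as a covariate, 3 of the 9 genes fell in BaP in 4 BaP against 4 DMSO arrays, where 9.91% of all genes were called and 5.48% were called lower. HERPUD1 had a log2 fold change of -0.47 ± 0.078 (SE, limma adjusted p = 0.00552), DDIT4 of -0.29 ± 0.076 (adjusted p = 0.0395) and HSPA5 of -0.26 ± 0.069 (adjusted p = 0.0399). The other 6 genes lay between -0.23 and 0.01. HERPUD1 passed without any 1 array, while DDIT4 passed in 2 and HSPA5 in 1 of the 8 fits with 1 array left out (adjusted p up to 0.0956 for DDIT4 and 0.111 for HSPA5). Without DMSO 24 h replicate 2 the values were -0.50 for HERPUD1 (adjusted p = 0.0106), -0.25 for DDIT4 (0.0956) and -0.21 for HSPA5 (0.0905).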

How the data were processed

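HepG2 total RNA (250 ng per array, per the labels' protocols) was amplified to biotinylated cRNA with a kit primed at the 3' end and hybridised to Affymetrix arrays. Per the submitters' processing notes the authors used RMA in R 2.12.2, and the deposited values are on the log2 scale. RMA equalises the intensity distribution of arrays and so removes any shift common to all transcripts. Neither the probe assignment nor the genome build is given in the sources used here. Beside a copy of these values, the authors' deposited table holds, per the file headers, log2 fold changes, signed fold changes, limma p-values (unadjusted, Bonferroni and false discovery rate) and a B score.

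Group means were fitted to 8 arrays and 19002 genes with limma 3.58.1 in R 4.3.3 (4 residual degrees of freedom; 5 in the model with time and compound), with no filter and Benjamini-Hochberg adjustment over all genes; the 62 control probe sets were left out. The model was tested on simulated data. Errors are moderated standard errors. Alternatives were a replicate block, leaving out each array, fitting 1 time alone, cyclic loess, median centring, poly-A scaling, a filter on dim genes, trended or robust moderation, a threshold of 0.01, a minimum fold of 1.5 and the table's own copy of the values.

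The members, lists and tests were chosen with earlier results of these data known. All 10 genes were to be named, with leading genes of pathway and cell type marker lists and the 3 genes most like ATF4 and HSPA5. The files and tables used here pair no other Ensembl ID with a symbol, so the lists were not analysed, the liver cell label was not checked against its markers, and the 10 symbols come from the rule that defines the set. Promoters were matched by symbol for 10 of 10 genes.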

Additional observations from a re-analysis of the deposited data

How the results depend on the processing

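Over 882 recomputed values of single genes, 761 kept their direction and their side of the threshold. Another 44 lost a call, 16 gained one (4 of them with the other sign), and 61 had the other sign with no call in either fit. Many of the 882 could not change direction. The replicate block, the filter on dim genes, trended or robust moderation and fitting 1 time alone leave each fold change the same. So does leaving out an array that does not enter the comparison. The second copy of the values repeats the main fit, so the tally is not a measure of stability. With arrays scaled to equal poly-A controls, the median of all genes for BaP minus DMSO moved to -0.11 at 24 h and 0.47 at 12 h. It moved to 0.18 over both times, to 0.05 for 24 h minus 12 h in BaP and to 0.63 for that in DMSO. In this last comparison 9 of the 9 genes passed as higher, where 15767 of 19002 genes were called. In each of the others 0 of the 9 passed. There 110 of all genes were called at 24 h, 2011 at 12 h, 192 over both times and 345 for the time change in BaP. This scaling shifts all genes of an array by the same amount, so the distance of a gene from those medians could not change. HERPUD1 was then -0.40 at 24 h and -0.21 at 12 h for BaP minus DMSO. In DMSO 4 values turned positive with that shift, TRIB3 to 0.62, CHAC1 to 0.50, PSAT1 to 0.51 and XBP1 to 0.65. An adjusted p under 0.01 left 0 of the 9 genes at 24 h and 1 over both times, and a minimum fold of 1.5 left 0 at each of these. The 4 arrays of 24 h alone gave 0 in limma at 24 h, where 4 had an unadjusted p under 0.05. The adjusted p was 0.0628 for HSPA5, 0.110 for DDIT4 and 0.123 for HERPUD1. HERPUD1 passed with the arrays of 12 h alone (adjusted p = 0.00480). Over all genes, these fits called 569 at 24 h and 1395 at 12 h, against 1153 and 1571 in the main fit. Cyclic loess and the replicate block each gave 1 gene in DMSO, DDIT4 (0.0469 and 0.0313), and trended moderation 2 in DMSO, DDIT4 and HERPUD1, 1 for the difference, HERPUD1, and XBP1 besides at 24 h (0.0421). Robust moderation lost DDIT4 at 24 h (0.0524). Fits without 1 array assume that the lone partner varies like the other groups. In these fits the median of the 9 genes ran from -0.30 to -0.08 at 24 h and from -0.21 to -0.07 at 12 h. Fewer of the 9 genes passed at 24 h in each of them, as did fewer of all genes. Apart from the use of fewer arrays or a lower threshold, the cause of these changes was not tested.

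Across genes, the replicate gaps of the groups correlated at 0.10 to 0.14 except for BaP against DMSO at 24 h (-0.05). The labels do not say whether arrays of the same number belong together, and the main fits left the number out. The replicate block called 3 of the 9 genes at 24 h, 1 at 12 h, 0 for the difference and 1 for the time change in BaP. It called 1 for that in DMSO and 2 over both times, where HSPA5 no longer passed (adjusted p = 0.0518). Over all 19002 genes it called 1297, 1679, 151, 3062, 1388 and 1812 in the same order. Its standard error was 0.087 for ASNS and 0.092 for DDIT3 at each time, against 0.23 and 0.19 without the block, and neither gene passed. Column names of the authors' table carry Ex2 and Ex3 in every group, which no source used here explains. The number of arrays, 2 per group, limits the precision.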

Other observations

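Among 15848 genes with a mean above the level of the absent control transcript, the gene whose values followed those of HSPA5 most closely over the 8 arrays was ENSG00000180767, with a Pearson coefficient of 0.992, followed by ENSG00000146802 with 0.986. These coefficients were the highest of all genes compared and are a description of 8 arrays that fall into 4 groups. The tables used here pair neither ID with a symbol.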
